A study of Homo sapiens with 8 samples.

Results

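The subject is 9 genes that mark radial glia and neural progenitors outside the SOX family, examined in neural progenitors of the human embryonic stem cell line H9, an established line. They were taken by name from a list chosen with earlier results of these data known (NES, VIM, MSI1, MSI2, FABP7, PROM1, CDH2, DACH1 and ZBTB16). All 9 were found among the 19821 protein-coding genes that RefSeq GRCh38.p14 places on the autosomes and the X chromosome. Chromatin immunoprecipitation sequencing (ChIP-seq) gave 4 libraries with a peak list: H3K36me2 in progenitors carrying the KDM2A hairpin sh1, H3K36me2 in progenitors carrying the KDM2A hairpin sh4, H3K36me2 in control (NC) progenitors, and KDM2A itself in control progenitors. All groups, the control included, were infected as stem cells with lentivirus at a multiplicity of infection of 20 and selected with puromycin at 1 µg/ml. With 1 library in each group, differences between libraries have no replicate check and were not tested. The lists hold no expression values, so neither the progenitor label nor the KDM2A level of the hairpin cells could be checked in them.

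Radial glia are the stem cells of the developing brain. They span the wall of the neural tube and are recognised by intermediate filaments, fatty acid binding proteins, RNA-binding proteins and adherens junctions. H3K36me2, dimethylation of lysine 36 on histone H3, is laid down by NSD enzymes over broad stretches of gene bodies and intergenic DNA. KDM2A removes it and is drawn to unmethylated CpG-rich DNA by a CXXC zinc finger.

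The places of H3K36me2 regions at these genes differed between libraries. This was so over the whole lists too, where the share of a list's length found in another list ran from 7.87% to 11.3%. Over the gene bodies and 50 kb to each side, 41 regions were called, 14 in sh1, 10 in sh4 and 17 in control cells. In the bodies this was 4.62, 3.30 and 5.94 regions per Mb, against 6.62, 6.93 and 7.01 in the bodies of all protein-coding genes. In the flanks it was 7.78, 5.56 and 8.89 per Mb. MSI2 and FABP7 held regions within the annotated gene in control cells alone, at FABP7 only upstream of its RefSeq start. CDH2 held them in both hairpin lists and not in the control. NES, VIM and MSI1 held none within the gene in any library, as was the case for 70.6% of all protein-coding genes. A KDM2A peak lay within 2 kb of an end of 7 of the 9 genes, against 84.0% of all protein-coding genes. No peak at an end of these genes had an FDR under 0.05 as given by the authors' peak caller, against 5.55% of all genes.

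Promoter windows from RefSeq (GRCh38.p14), 250 bases before to 50 after a start, were at hand for 7 members, 12 windows in all. MSI1 and ZBTB16 were not matched. A set of 5 is shown because they span the range of KDM2A signal at the starts of these genes: a peak over the window at PROM1, peaks beside it at FABP7 and CDH2, and none within 2 kb at NES and VIM. Each sequence runs 5′ to 3′ along the gene, and capitals mark the dinucleotide CG, the letters that the CXXC finger binds when unmethylated.

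PROM1, chr4:16083287-16083586, minus strand: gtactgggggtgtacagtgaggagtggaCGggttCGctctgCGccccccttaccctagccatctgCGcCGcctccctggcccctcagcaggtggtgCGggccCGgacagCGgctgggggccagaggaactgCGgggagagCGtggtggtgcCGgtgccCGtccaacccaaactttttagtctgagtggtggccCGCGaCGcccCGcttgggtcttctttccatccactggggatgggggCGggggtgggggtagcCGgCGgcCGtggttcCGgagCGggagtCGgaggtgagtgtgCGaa
FABP7, chr6:122779466-122779765, plus strand: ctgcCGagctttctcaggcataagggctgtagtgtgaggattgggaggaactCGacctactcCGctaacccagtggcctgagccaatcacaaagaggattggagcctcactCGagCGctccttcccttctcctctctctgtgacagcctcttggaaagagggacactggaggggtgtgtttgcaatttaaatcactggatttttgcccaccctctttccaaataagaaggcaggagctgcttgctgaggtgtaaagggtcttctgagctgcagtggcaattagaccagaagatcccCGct
CDH2, chr18:28177081-28177380, minus strand: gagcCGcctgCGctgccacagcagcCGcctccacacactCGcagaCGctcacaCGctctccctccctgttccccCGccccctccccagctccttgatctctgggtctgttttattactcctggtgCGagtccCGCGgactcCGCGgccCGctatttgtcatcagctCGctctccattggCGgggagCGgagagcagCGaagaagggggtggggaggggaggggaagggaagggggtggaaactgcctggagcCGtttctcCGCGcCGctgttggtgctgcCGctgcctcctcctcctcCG
NES, chr1:156677358-156677657, minus strand: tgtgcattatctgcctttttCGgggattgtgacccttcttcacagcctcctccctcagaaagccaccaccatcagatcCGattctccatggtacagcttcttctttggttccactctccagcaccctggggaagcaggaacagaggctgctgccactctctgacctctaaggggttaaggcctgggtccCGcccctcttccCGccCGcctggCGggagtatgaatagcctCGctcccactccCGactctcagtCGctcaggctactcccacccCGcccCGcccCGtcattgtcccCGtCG
VIM, chr10:17227991-17228290, plus strand: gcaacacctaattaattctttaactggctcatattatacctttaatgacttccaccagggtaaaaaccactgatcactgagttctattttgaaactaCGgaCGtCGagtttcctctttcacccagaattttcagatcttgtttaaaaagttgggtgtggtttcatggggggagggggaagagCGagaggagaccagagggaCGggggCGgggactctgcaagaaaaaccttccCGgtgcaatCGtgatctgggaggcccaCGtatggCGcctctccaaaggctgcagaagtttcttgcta

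The PROM1 window above held 24 CG, the CDH2 window 23, the NES window 14, the VIM window 10 and the FABP7 window 6. CG reads the same on both strands, and 98.1% of the 22156 promoter windows of protein-coding genes held at least 1, with a median of 21. Across the 12 windows of the members the count ran from 4, at an internal start of CDH2, to 34, at the internal start of MSI2. Only the PROM1 window shown overlapped a KDM2A peak, 1 of 12, against 21.0% of all windows. In all windows the share with a peak was 14.3% at 0 to 4 CG, 17.1% at 5 to 14, 22.1% at 15 to 24 and 25.2% at 25 or more. The MSI2 window with 34 CG and a PROM1 window with 32 CG fell in the class most often overlapped, and neither held a peak.

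NES encodes nestin, the intermediate filament of neural stem cells, and VIM encodes vimentin, the intermediate filament of radial glia and mesenchymal cells. Both genes are short. NES (gene 10763, chromosome 1, 156668763 to 156677407) spans 8.65 kb and VIM (gene 7431, chromosome 10, 17228241 to 17237593) spans 9.35 kb. Neither held a KDM2A peak in its body or within 2 kb of an end. Their density of 0 peaks has a counting interval that reaches 4.27 peaks per 10 kb at NES and 3.94 at VIM, so the median of 2.24 for genes under 20 kb was within what such short genes allow. The nearest peak lay 2129 bp upstream of the NES start, with a fold of 2.91 (FDR 0.102), and 5103 bp upstream of the VIM start, with a fold of 1.91 (FDR 0.630). A stronger peak lay 45.4 kb from NES over HAPLN2, which encodes a linker protein of the extracellular matrix, with a fold of 3.61 (FDR 0.0162).

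No H3K36me2 region lay in NES, in VIM or within 50 kb of NES in any library. Of genes under 20 kb, 94.5% had no region over the body in any library, so the absence is the usual state of a gene of this size. The region nearest to the NES start was 796 kb away in sh1, 1217 kb in sh4 and 190 kb in control cells. NES lies on the long arm of chromosome 1 beyond 140 Mb, where regions covered 3.13 Mb in sh1, 15.5 Mb in sh4 and 3.74 Mb in control cells. The sh4 excess in that arm left the surroundings of NES without a region. At VIM the sh1 library had 1 region in the flank, 34.8 kb upstream of the start, over TRDMT1, which encodes an RNA cytosine methyltransferase. It was 2.0 kb wide with a fold of 1.78 (95% counting interval 1.25 to 2.57; 90 IP and 50 input reads). The nearest region was 81.4 kb from the VIM start in sh4 and 84.0 kb in control cells.

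MSI1 and MSI2 encode the Musashi proteins, which bind RNA and keep progenitors from differentiating. MSI1 (gene 4440, chromosome 12, 120339662 to 120369164) spans 29.5 kb and held no H3K36me2 region in the body or the flanks of any library. The nearest region to either of its ends was 404 kb away in sh1, 484 kb in sh4 and 122 kb in control cells. MSI1 held 3 KDM2A peaks in the body, or 1.02 per 10 kb (0.210 to 2.97), and 1 peak 345 bp beyond its lower-coordinate end with a fold of 2.58 (FDR 0.297). The highest KDM2A fold around any member, 4.92, belonged to a peak 14 kb beyond the other end of MSI1, spanning 120383126 to 120383767 (FDR 1.17e-05, pileup 18). The pileup is the authors' height of stacked fragments, and 0.131% of all 504724 peaks had a fold at least as high. That peak lay in no protein-coding gene and no H3K36me2 region.

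MSI2 (gene 124540, chromosome 17, 57255851 to 57701581) is the longest member at 446 kb. In sh1 no region lay in the gene and 2 narrow ones lay outside it, 28.5 kb upstream and 11.8 kb beyond the 3′ end. These were 1.4 and 1.6 kb wide with folds of 2.11 (1.36 to 3.34) and 2.03 (1.39 to 3.0). In sh4 none lay in the gene or its flanks. Control cells had 4 regions in the gene, covering 45.8 kb or 10.3% of it.

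The control regions of MSI2 lay at 154 to 167 kb, 172 to 178 kb, 308 to 319 kb and 371 to 388 kb from the start. Their widths were 12.4, 5.6, 11.2 and 16.6 kb. Their folds were 1.49 (1.29 to 1.72), 1.44 (1.16 to 1.80), 1.35 (1.17 to 1.56) and 1.27 (1.13 to 1.42). The widest of them was wider than 99.2% of control regions and had a higher fold than 1.11% of them. MSI2 was thus marked in the control by wide and shallow regions, all below the control list's median fold of 1.59; none remained when only folds above that median were kept.

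KDM2A peaks were spread along MSI2 at 1.84 per 10 kb (1.46 to 2.28; 82 peaks), against a median of 1.56 in genes over 100 kb. A peak lay 566 bp upstream of the outer start with a fold of 2.73, and 3 lay near the 3′ end with folds of 1.97 to 2.85. The strongest peak in the gene, spanning 57459947 to 57460287 and 204 kb from the start, had a fold of 3.89 (FDR 0.00471). It lay between control H3K36me2 regions and in none of them.

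**Figure D1:**
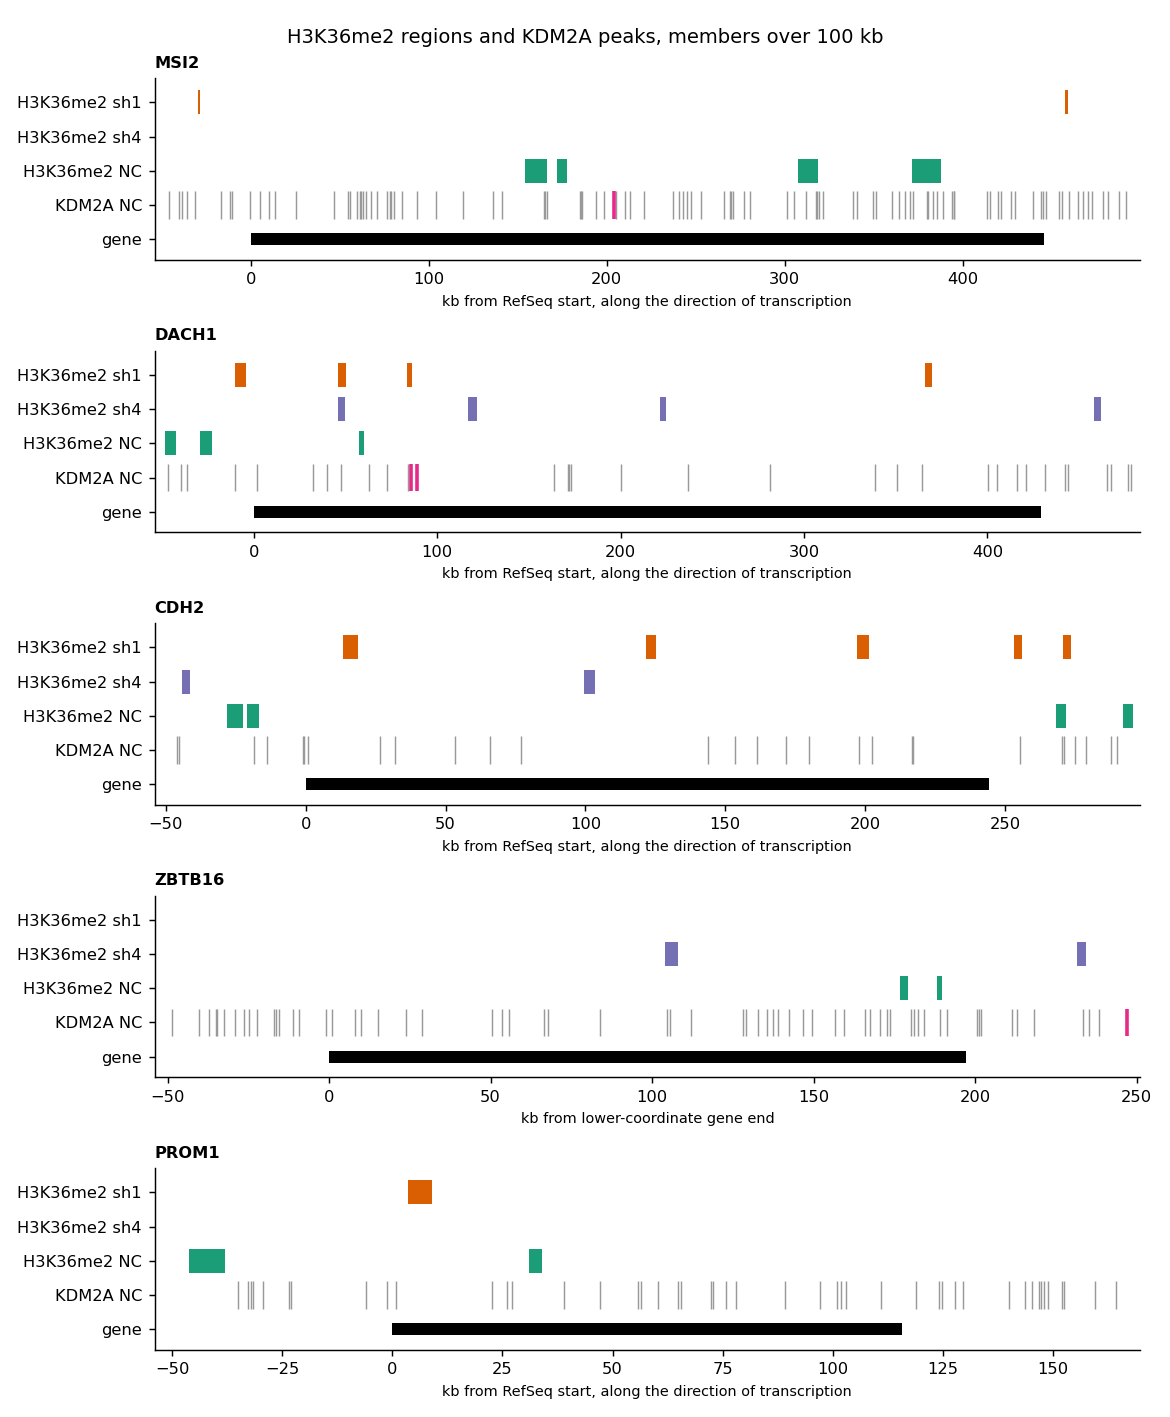
Position of H3K36me2 regions (boxes, in sh1, sh4 and NC cells) and KDM2A peaks (ticks, NC cells; thick magenta where the authors' FDR was under 0.05) along the 5 members over 100 kb and 50 kb to each side, in kb from the outermost RefSeq start or, for ZBTB16, from the lower-coordinate end. MSI2 holds boxes inside the gene in NC cells alone, while in DACH1 the sh1 and sh4 boxes coincide 46.0 kb from the start.

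FABP7 encodes the brain lipid-binding protein, a fatty acid carrier of radial glia. Its annotated span (gene 2173, chromosome 6, 122749201 to 122784074) is 34.9 kb, of which 30.5 kb, or 87.5%, lies upstream of the RefSeq start at 122779716. The stretch from that start to the end of the gene is 4.36 kb long. In sh1 the span held no region and 1 lay in the flank at lower coordinates, 18.6 kb outside it, with a fold of 1.73 (1.28 to 2.35). In sh4 the span held no region and 2 lay in the flanks, over PKIB, a protein kinase A inhibitor gene, with a fold of 1.69 (1.23 to 2.35), and over SMPDL3A, a phosphodiesterase gene, with a fold of 2.33 (1.68 to 3.28).

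Control cells had 1 region of 7.6 kb in the FABP7 span, which covered 21.8% of it, the highest value of any member in any library. It ended 21.5 kb upstream of the RefSeq start, so the stretch from the start to the gene's end was covered over 0 bp in each of the 3 libraries. Its fold was 1.44 (1.18 to 1.75; 257 IP and 176 input reads), below the control list's median fold, so a limit at that median removed it. A second control region, over SMPDL3A, began 2.33 kb beyond the end of FABP7, with a fold of 1.63 (1.31 to 2.04).

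KDM2A peaks at FABP7 numbered 5 in the body, at 1.43 per 10 kb (0.466 to 3.35). The nearest to the RefSeq start lay 115 bp inside the gene with a fold of 2.84 (FDR 0.273). The highest, near the 3′ end and 3.23 kb from the start, had a fold of 3.47 (FDR 0.0644). In the flank at lower coordinates were 2 peaks with an FDR under 0.05. The higher, spanning 122730276 to 122730474, had a fold of 4.30 (FDR 0.00191) and lay inside the sh1 H3K36me2 region named above. The other, spanning 122746809 to 122747085, had a fold of 3.68 (FDR 0.0194) and lay 2.12 kb outside the span and in no region.

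**Figure D2:**
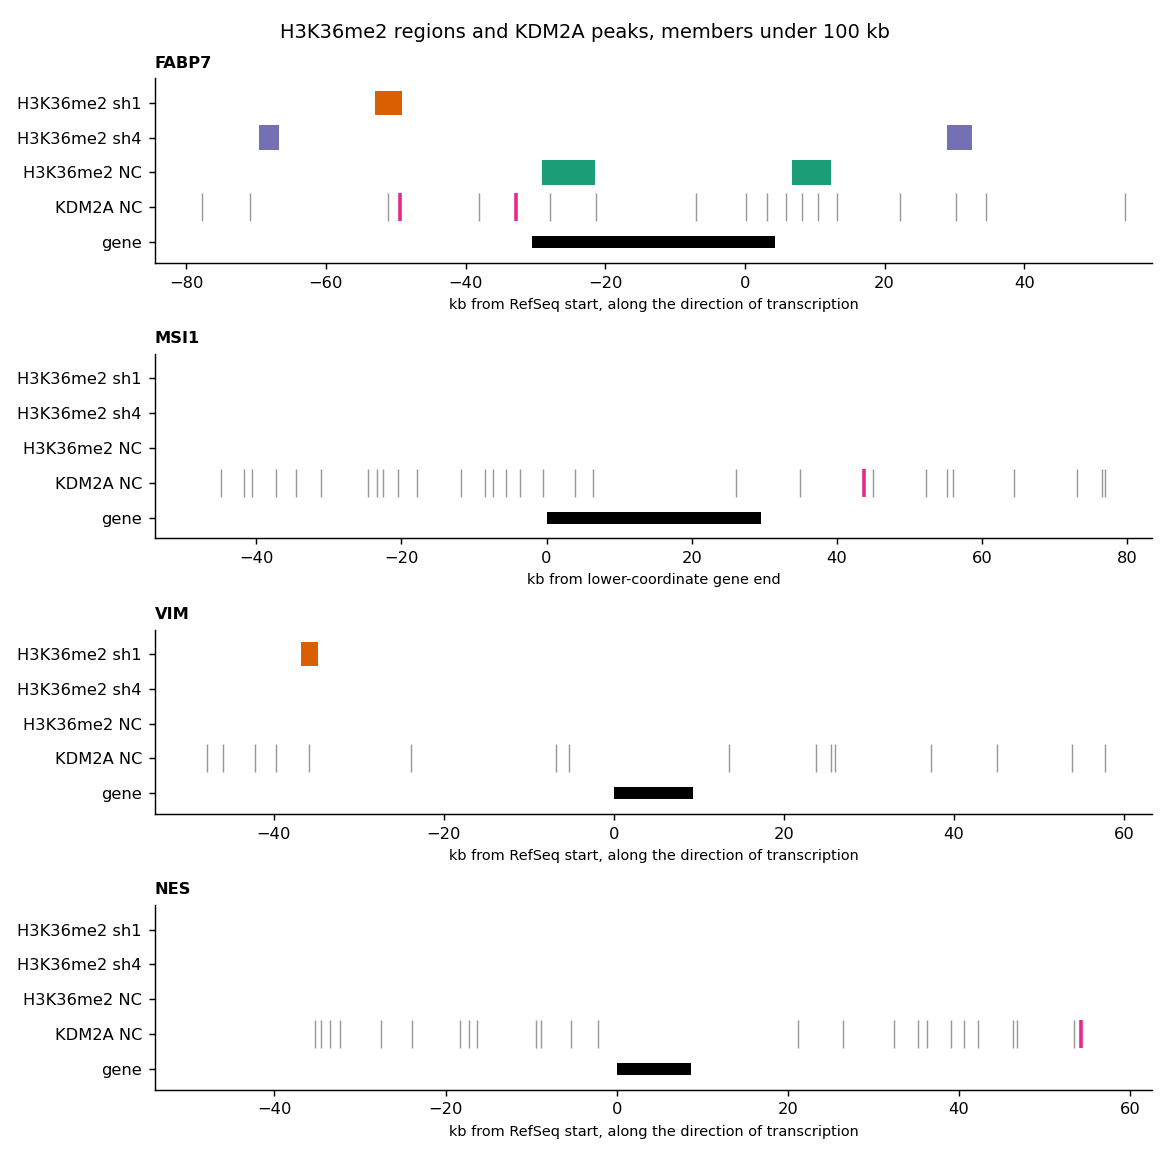
Position of H3K36me2 regions (boxes, in sh1, sh4 and NC cells) and KDM2A peaks (ticks, NC cells; thick magenta where the authors' FDR was under 0.05) at the 4 members under 100 kb with 50 kb to each side, in kb from the RefSeq start or, for MSI1, from the lower-coordinate end. The FABP7 box inside the span in NC cells ends 21.5 kb upstream of the start, and MSI1 and NES have no box.

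PROM1 encodes prominin 1 (CD133), a cholesterol-binding protein of apical membrane protrusions. The gene (gene 8842, chromosome 4, 15968228 to 16084023) spans 116 kb and has 4 RefSeq starts in the promoter table. The sh1 library had 1 region of 5.4 kb in it, 3.62 to 9.02 kb from the outermost start, with a fold of 1.56 (1.27 to 1.92), or 4.66% of the gene. That region covered the innermost start, at 16076118. It was the only H3K36me2 region over any of the 12 RefSeq starts of the members. The sh4 list had no region in PROM1 or its flanks. Control cells had 1 region of 3.0 kb in the gene, 31.0 to 34.0 kb from the outermost start, with a fold of 1.70 (1.27 to 2.28), or 2.59% of the gene, and another 38.0 kb upstream. The sh1 and control regions in PROM1 were 22 kb apart.

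The KDM2A peak over the PROM1 window printed above, spanning 16083181 to 16083351, had a fold of 3.02 (FDR 0.145, pileup 10). It covered the start at 16083336 itself. PROM1 held 21 peaks in the body, at 1.81 per 10 kb (1.12 to 2.77), close to MSI2 in density.

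CDH2 encodes N-cadherin, which joins radial glia at their apical junctions. The gene (gene 1000, chromosome 18, 27932879 to 28177130) spans 244 kb. The sh1 list had 3 regions in the body, at 13.3 to 18.7, 122 to 125 and 197 to 202 kb from the outer start, with folds of 1.42 (1.16 to 1.76), 1.76 (1.30 to 2.38) and 1.54 (1.19 to 2.01). The sh4 list had 1 region in the body, at 99.3 to 104 kb, with a fold of 2.45 (1.82 to 3.33), the highest fold of a region at any member. Control cells had no region in the body. Coverage was 5.49% in sh1, 1.72% in sh4 and 0% in control cells, and the sh1 and sh4 regions did not overlap, lying at least 18.2 kb apart.

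The flanks of CDH2 were marked in each library. The sh1 list had 2 regions beyond the 3′ end, of which the nearer lay 8.88 kb outside the gene over the antisense RNA gene CDH2-AS1, with a fold of 2.12 (1.56 to 2.91). The sh4 list had 1, 41.5 kb upstream of the start, with a fold of 2.08 (1.46 to 3.0). Control cells had 4, a pair upstream with folds of 1.98 (1.51 to 2.62) and 1.41 (1.16 to 1.73) and a pair beyond the 3′ end with folds of 1.61 (1.22 to 2.13) and 1.59 (1.18 to 2.15). The outermost of these reached past the 50 kb limit. Control cells thus held regions on both sides of CDH2 with none between. The farther sh1 region beyond the 3′ end shared 1.0 kb with a control region, the only stretch at these genes that a hairpin library shared with the control.

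Within 2 kb of the outer start of CDH2 lay 3 KDM2A peaks with folds of 1.95, 2.17 and 2.41 and FDR from 0.437 to 0.693. In the body the density was 0.614 peaks per 10 kb (0.344 to 1.01; 15 peaks), and 2.09% of genes over 100 kb had a lower one.

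DACH1 encodes a transcription factor of the dachshund family, used as a marker of early neural progenitors. The gene (gene 1602, chromosome 13, 71437966 to 71867204) spans 429 kb and was the only member with a region in the body in all 3 libraries. The sh1 list had 3 regions in it, at 46.0 to 50.4, 83.8 to 86.4 and 366 to 370 kb from the start, with folds of 1.86 (1.41 to 2.46), 1.65 (1.2 to 2.27) and 2.31 (1.67 to 3.26). In sh4 3 regions began at 46.0, 117 and 221 kb, with folds of 1.70 (1.28 to 2.27), 1.5 (1.16 to 1.96) and 1.62 (1.18 to 2.23). Control cells had 1, which began at 57.2 kb and was 2.8 kb wide, with a fold of 2.15 (1.52 to 3.08). Coverage was 2.56% in sh1, 2.80% in sh4 and 0.652% in control cells.

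The sh1 and sh4 regions nearest to the DACH1 start, at 71816801 to 71821200 and 71817201 to 71821200, ended at the same position and shared 4.0 kb. This was the only stretch at the members that both hairpin libraries held. The control region lay 6.8 kb from the sh1 region and 7.2 kb from the sh4 region, so the libraries' regions came near each other in this part of the gene without the control overlapping either. No flank region overlapped one of another library: 1 in sh1 at 4.20 kb upstream, 1 in sh4 at 29.0 kb beyond the 3′ end, and 2 in control cells at 22.8 and 42.4 kb upstream. The outer control region lay 6.0 kb from an sh1 region and 10.6 kb from an sh4 region, both outside the flank. Over the whole lists only 7.87% to 11.3% of a list's length was found in another list.

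DACH1 held both of the highest KDM2A folds in the body of any member. The peak spanning 71781261 to 71781580, 85.8 kb from the start, had a fold of 4.36 (FDR 3.2e-05, pileup 20), and it lay inside the sh1 region at 83.8 to 86.4 kb. The peak spanning 71777956 to 71778256, 89.1 kb from the start, had a fold of 4.42 (FDR 0.00135) and lay in no region. A weaker peak with a fold of 2.06 (FDR 0.630) lay in the stretch that sh1 and sh4 shared. The gene as a whole was sparse in KDM2A peaks, with 0.536 per 10 kb (0.340 to 0.804; 23 peaks), and 1.07% of genes over 100 kb had a lower density. The peak nearest to its start was weak, with a fold of 1.74 (FDR 0.839).

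ZBTB16 encodes PLZF, a zinc finger repressor that is on in early neural rosettes. The gene (gene 7704, chromosome 11, 114059711 to 114256770) spans 197 kb. In sh1 neither the gene nor its flanks held a region, and the nearest to either end was 358 kb away. In sh4 1 region lay in the gene, at 104 to 108 kb from the lower-coordinate end, with a fold of 1.52 (1.17 to 1.97), and 1 in the flank over NNMT, a nicotinamide methyltransferase gene, with a fold of 1.86 (1.35 to 2.59). Control cells had 2 in the gene, at 177 to 179 and 188 to 190 kb, with folds of 1.64 (1.24 to 2.19) and 2.13 (1.42 to 3.26). Coverage was 0% in sh1, 2.13% in sh4 and 2.03% in control cells, so sh4 and the control covered like lengths of ZBTB16 at places that did not overlap. KDM2A peaks stood at 1.88 per 10 kb (1.32 to 2.59; 37 peaks), and 2 lay within 2 kb of the lower-coordinate end with folds of 1.95 and 2.22. In the flank over NNMT, 49.7 kb out, lay a peak with a fold of 3.59 (FDR 0.0337).

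**Figure D3:**
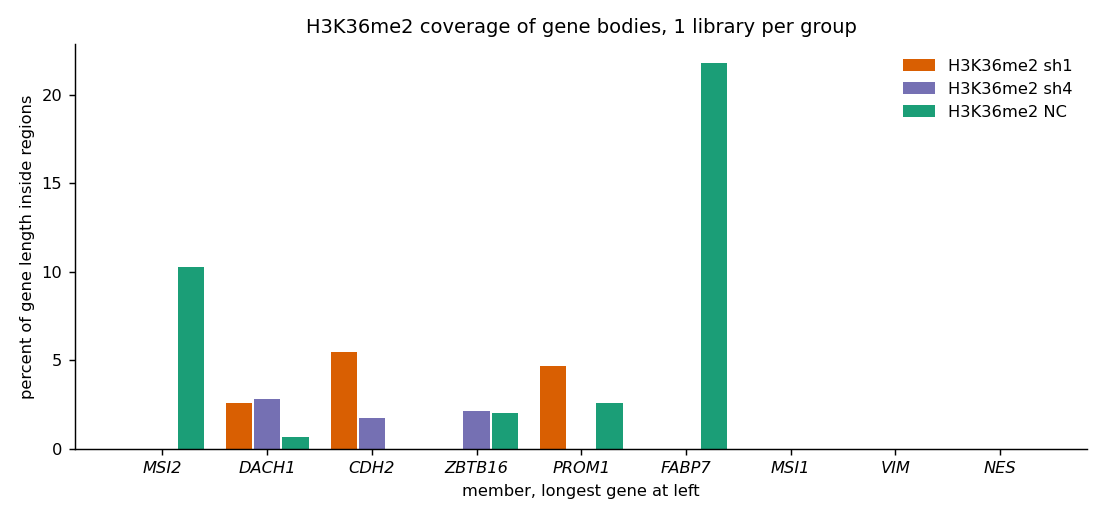
Percent of each member's annotated length (vertical axis) inside H3K36me2 regions of sh1, sh4 and NC cells (bars, 1 library each), with genes ordered by length. Both hairpin libraries are at 0% at FABP7 and MSI2, where NC cells reach 21.8% and 10.3%, and MSI1, VIM and NES have no bar. The FABP7 value comes only from the part of its span upstream of the RefSeq start.

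Taken over the members, a region lay in the body of 3 genes in sh1, 3 in sh4 and 5 in control cells, against 16.2%, 15.4% and 20.0% of all protein-coding genes. These shares were higher in longer genes. Among genes over 100 kb the background was 59.1% in sh1, 57.5% in sh4 and 66.2% in control cells, and the 5 members of that length had a region in 3, 3 and 4 cases. In the body or the 50 kb flanks, regions were found at 6 members in sh1, 4 in sh4 and 6 in control cells, against 31.0%, 28.7% and 41.7%. For genes over 100 kb the background with flanks was 68.0% in sh1, 65.6% in sh4 and 76.9% in control cells. Of the 5 long members, 4, 3 and 5 had such a region. Coverage of the body was lower in both hairpins than in the control for 2 members, MSI2 and FABP7, against 12.6% of all genes, and higher in both for 2, CDH2 and DACH1, against 4.69%. At FABP7 the control coverage lay only in the part of its span upstream of the RefSeq start. Among genes over 100 kb these shares were 32.1% and 19.9%, and 1 and 2 of the 5 long members fell in them. Both hairpins are set against the same control library here. With only folds above the control list's median, 2 members were again lower in both, but these were PROM1 and ZBTB16, since MSI2 and FABP7 had 0% in every library, while CDH2 and DACH1 stayed higher in both. With an FDR under 1e-10, MSI2 alone was lower in both and 0 members were higher in both. Shares of all genes are not given at these limits. Median coverage was 0% in sh1, 0% in sh4 and 0.652% in control cells over the members, and 0% in each library over all genes.

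Summed over the members, regions covered 29.8 kb of gene body in sh1, 20.4 kb in sh4 and 63.2 kb in control cells, or 1.97%, 1.35% and 4.17% of 1514 kb. Over the bodies of all protein-coding genes the share was 3.10%, 3.53% and 3.6%. For the bodies MSI2 alone decided the order, since without it the sums were 29.8 kb in sh1, 20.4 kb in sh4 and 17.4 kb in control cells. With the flanks the sums were 50.2 kb in sh1, 36 kb in sh4 and 104.9 kb in control cells. Without MSI2 the sums with flanks were 47.2 kb, 36 kb and 59.1 kb, with the control still highest. Over all members the order with flanks turned when only regions above the control list's median fold were kept, to 29.2 kb in sh1, 27 kb in sh4 and 23 kb in control cells. That limit is unequal between libraries. The median fold was 1.59 in the control list and 1.65 in each hairpin list, so it removes a larger part of the control list.

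The median width was 3.7 kb in sh1, 3.7 kb in sh4 and 5.6 kb in control cells, and the median fold was 1.74, 1.78 and 1.53. They held a median of 22.2 input reads per kb in sh1, 20.0 in sh4 and 25 in control cells, and the part of this difference in the widths and folds was not tested. Over each whole list the median width was 4.2, 4.4 and 4.4 kb and the median fold 1.65, 1.65 and 1.59. An absent region means that the authors' caller listed none, and the reads at such a place are not known. In the plot of folds by region, the sh4 body region of CDH2 had a counting interval of 1.82 to 3.33. It did not meet that of the control flank region of lowest fold, 1.16 to 1.73. It met those of the other control regions there, 1.51 to 2.62, 1.22 to 2.13 and 1.18 to 2.15. These regions lie at different places, so their folds do not compare the libraries at any 1 place.

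**Figure D4:**
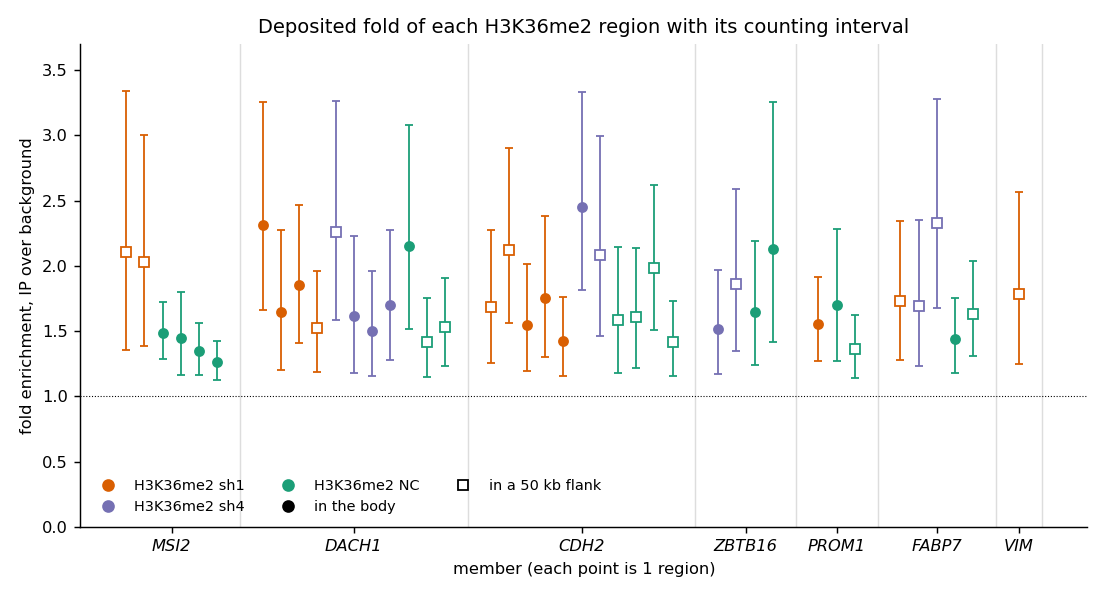
Deposited fold enrichment (vertical axis, linear, IP over background) of each of the 41 H3K36me2 regions at the members, grouped by gene and then by library (sh1, sh4, NC), filled in the body and open in a 50 kb flank; bars are 95% counting intervals. The 4 NC regions in MSI2 lie at 1.27 to 1.49, and the sh4 region in CDH2 is highest at 2.45.

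Few stretches recurred between libraries. The sh1 and sh4 lists shared 4.0 kb at these genes, 7.97% of the sh1 length and 11.1% of the sh4 length, against 11.3% and 9.53% over the whole lists. The sh1 and control lists shared 1.0 kb, 1.99% of the sh1 length and 0.953% of the control length, against 10.4% and 9.67%. The sh4 and control lists shared 0 kb, against 7.87% and 8.68%. These shares rest on 1 overlapping region for sh1 and sh4, 1 for sh1 and the control and 0 for sh4 and the control.

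KDM2A density in the body had a median of 1.02 peaks per 10 kb over the members and 1.82 over all protein-coding genes. These medians mix gene lengths. By class, the medians of members and of all genes were 0 and 2.24 under 20 kb, 1.23 and 1.76 at 20 to 100 kb, and 1.81 and 1.56 over 100 kb. The 5 long members split, with MSI2, PROM1 and ZBTB16 at 1.81 to 1.88 and CDH2 and DACH1 at 0.536 to 0.614. The intervals of the low pair did not meet those of the other long members, while the order within each set lay inside the intervals. At RefSeq starts, 5 of the 7 members with a start in the table had a peak within 2 kb, against 68.9% of all genes with a start, and at the 3′ end 3 of 7 did, against 58.9%.

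**Figure D5:**
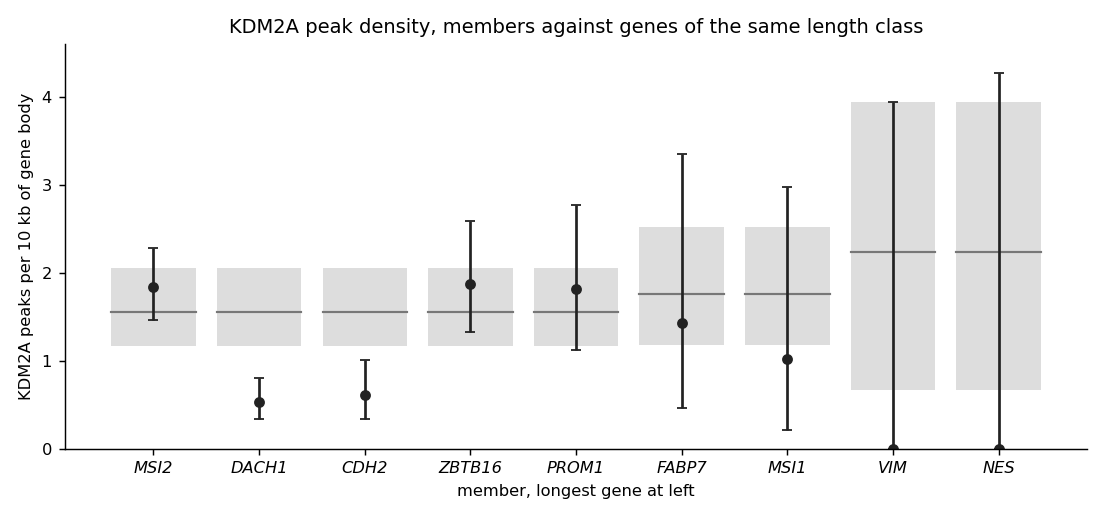
KDM2A peaks per 10 kb of gene body (points, with exact 95% Poisson intervals) for the 9 members ordered by length, over the median (grey line) and middle 50% (grey box) of protein-coding genes of the same length class. DACH1 at 0.536, CDH2 at 0.614, MSI1 at 1.02 and VIM and NES at 0 lie below the box of their class, and the intervals of MSI1, VIM and NES reach 2.97, 3.94 and 4.27.

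Around the members, 8 of 364 KDM2A peaks (2.20%) had an FDR under 0.05, against 3.08% of peaks on these chromosomes, 3 of them in a body (1 in MSI2 and 2 in DACH1) and 5 in a flank. A peak of this kind lay in the body of 2 of the 9 members, against 20.1% of all genes and 56.0% of genes over 100 kb, to which both belong. Of the 8, 2 lay inside an H3K36me2 region, both times a region of sh1, at DACH1 and upstream of FABP7. The share of all such peaks that lie inside regions is not given, so a link to sh1 regions was not tested. Inside the H3K36me2 regions of the members, KDM2A peaks of control cells stood at 1.79 per 10 kb in sh1 regions, 1.39 in sh4 regions and 1.79 in control regions. These rest on 9, 5 and 19 peaks. No density over all H3K36me2 regions is given beside them. The median over gene bodies was 1.82 for all protein-coding genes and 1.56 for those over 100 kb.

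Further genes of this kind were described from 2 lists, also chosen with earlier results of these data known. Of 13 other radial glia genes, a region lay in the body of 5 in sh1, 4 in sh4 and 8 in control cells, against the 16.2%, 15.4% and 20.0% of all protein-coding genes given above. These shares were 14.1%, 13.1% and 19.7% at 20 to 100 kb and 59.1%, 57.5% and 66.2% over 100 kb. Both hairpins were below the control in coverage at 6 of the 13 and above it at 1, against 12.6% and 4.69% of all genes. The share below rose with length, from 2.68% under 20 kb to 15.5% at 20 to 100 kb and 32.1% over 100 kb. The share above was 0.158%, 3.28% and 19.9%. Of the 6, PTPRZ1, LIFR and GLI3 are over 100 kb and TNC, HOPX and FAM107A are 20 to 100 kb long. TNC, which encodes the matrix protein tenascin C, was covered over 0% in sh1, 0% in sh4 and 39.3% in control cells. FAM107A and HOPX, markers of outer radial glia, were covered over 0% in sh1 and sh4, with 36.6% at FAM107A and 8.90% at HOPX in control cells. SLC1A3, the glial glutamate transporter gene, was covered over 13.7% in sh1, 0% in sh4 and 6.10% in control cells. Coverage in sh1, sh4 and control cells was 5.53%, 3.6% and 9.64% at PTPRZ1, 3.74%, 2.84% and 7.33% at LIFR, 6.87%, 4.12% and 2.92% at PTN and 1.05%, 0.989% and 1.25% at GLI3. PTPRZ1, a receptor phosphatase gene, was the 1 gene of this list with a KDM2A peak of FDR under 0.05 at an end, against 5.55% of all genes. Of 10 progenitor transcription factor genes, none held a region in the body in any library, as was so for 70.6% of all genes. The share was 94.5% of genes under 20 kb and 66.5% of genes of 20 to 100 kb. A KDM2A peak lay at an end of 9 of them, against 84.0%, and SOX9 and OTX2 had one with an FDR under 0.05, against 5.55%. These genes have a median length of 4.98 kb, against 63.5 kb in the radial glia list and 116 kb in the 9 members.

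Genes like FABP7 and MSI2 in coverage were sought among genes of 0.5 to 2 times their length by the Euclidean distance over the 3 H3K36me2 libraries. Nearest to FABP7 among 6925 genes were TRAF3IP2, LOC107986768 and HTR3B, in that order, each at 0% in both hairpins with 21.8%, 21.7% and 21.9% in control cells. Nearest to MSI2 among 1107 genes were CTIF and TMEM131, with 0% in both hairpins and 10.6% and 10.7% in control cells.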

How the data were processed

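Per the submitters' processing notes the tools were Bowtie 1.1.2, SICER and MACS2, and the builds GRCh38 and hg38, with no role given. The authors deposited a peak list for each of 4 libraries. Per the file headers the lists give a fold (a linear ratio of IP to background), a p-value and an FDR per region, and for KDM2A the pileup as a signal. The deposited score column was not used. H3K36me2 regions lie on a grid of 200 bp with starts counted from 0 and are given here counted from 1. KDM2A coordinates are as deposited. Every H3K36me2 FDR was under 1e-05, while KDM2A FDRs reached 0.869.

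The lists hold no library totals. H3K36me2 IP and input reads per region were recovered from fold and p-value with the Poisson distribution. All 3 libraries gave 100% of IP counts within 0.001 and 100% of input counts within 0.01 of a whole number, leaving out 3 regions in sh1, 6 in sh4 and 5 in control cells that could not be solved. The median region held 151 IP and 89 input reads in sh1, 156 and 92 in sh4, and 162 and 99 in control cells. Intervals of folds are exact conditional (Clopper-Pearson) and those of densities exact Poisson, both at 95%, and cover counting error only. The KDM2A library's depth is unknown beyond its pileup, with a median of 8. The functions were tested on simulated data.

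Gene positions and starts came from RefSeq GRCh38.p14, and genes of unplaced sequences were left out. A start was available for 15813 protein-coding genes. An overlap of 1 bp counted; body densities used peak midpoints. Length classes were under 20 kb, 20 to 100 kb and over 100 kb. All members, every protein-coding gene overlapped by their regions, listed genes with a region or a KDM2A peak of FDR under 0.05 at an end, and the 3 genes closest in coverage to FABP7 and MSI2 were to be named; values of some genes this names are not reported here. The members and lists were chosen with earlier results of these data known. Python 3.11.15, pandas 2.3.3 and scipy 1.17.1 were used. The 4 input samples entered only through these background values.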

Additional observations from a re-analysis of the deposited data

How the results depend on the processing

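No paired analysis was possible because each group holds 1 library, and for the same reason no replicate could be left out. Results below are counts or lengths over the 9 members. Members with a KDM2A peak at an end numbered 5 with 1 kb windows, 9 with 5 kb windows, 1 with the highest 10% of folds and 0 with an FDR under 0.05. Of all protein-coding genes, 5.55% had a peak at an end under that FDR limit. No such share is given for the other settings, so those counts cannot be set against all genes. The median KDM2A density was 0.152 per 10 kb with the highest 10% of folds and 0 with that FDR limit.

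With an H3K36me2 FDR under 1e-10, members with a region in the body numbered 1 in sh1, 1 in sh4 and 2 in control cells, and regions with flanks 3, 3 and 3, covering 11.4, 11.6 and 19.4 kb. Coverage was then lower in both hairpins at 1 member and higher in both at 0. With folds above the control median, 3 members had a body region in control cells, and the covered lengths were 29.2 kb in sh1, 27 kb in sh4 and 23 kb in control cells, from 7 regions in control cells. Coverage was still lower in both hairpins at 2 members, but at PROM1 and ZBTB16 in place of MSI2 and FABP7. No shares of all genes are given at the stricter FDR or the fold limit, so these member counts cannot be set against all genes. The order of libraries in covered length depended on the fold limit, and the cause was not tested. That limit lies below the median folds of both hairpin lists, so it removes a larger part of the control list. With 25 kb flanks the lengths were 44.0, 20.9 and 78.7 kb and sh4 had 6 regions. With 100 kb flanks they were 75.5, 89.8 and 130.2 kb, with 22 regions in sh1 and 21 in sh4. Leaving out MSI2, chosen after seeing the data, gave 59.1 kb with flanks and 17.4 kb of body in control cells. Without NES, whose locus held no region, no H3K36me2 value changed. Of the 11 body coverages above 0%, 4 became 0% with folds above the control median and 7 with the stricter FDR. Single regions rest on 66 to 677 IP reads, which limits what their folds can show.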
